A study of Mus musculus with 9 samples.

Results

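Long noncoding RNAs (lncRNAs) are transcripts, by convention longer than the small RNA classes, that are made and often spliced like messenger RNAs but are not known to encode a protein. The abundant lncRNAs of liver described here are the genes labelled lncRNA in the deposited table whose mean over the 9 libraries was at least 2 CPM (a gene's counts in every 1000000 counts of a library). The rule took 280 genes of the 56748 in the table. The table labels 11288 genes as lncRNA and 0 as lincRNA, 4057 of the lncRNAs had at least 1 count, and 746 were abundant enough to be tested. The members were chosen by their mean level over all 9 libraries together. A gene below 2 CPM in the vehicle libraries can pass through the formoterol libraries, as Dreh did, or the reverse, as Gm44706 did. Counts of differing members near the threshold are therefore not independent of the rule. All 280 members passed the filter on low counts.

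Bulk liver was compared between 5 samples from male C57BL/6J mice given formoterol at 1 mg/kg and 4 from mice given its vehicle, DMSO, by daily intraperitoneal injection over the last 4 weeks of a 20-week high-fat diet. The mice arrived at 7 weeks of age, started the diet at 8 weeks and were 28 weeks old at the end. Both groups ate the high-fat diet and both were injected, so there is no lean or uninjected group. Formoterol is a long-acting agonist of beta-2 adrenergic receptors, which signal through cyclic AMP. Columns of the table carry a code for each library and a group suffix, and the direction of every comparison rests on reading the suffix as formoterol for M46, M47, M48, M49 and M50 and as vehicle for M56, M58, M59 and M60.

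Different lncRNAs act in different ways. Some hold nuclear bodies together or bind proteins in the nucleus, some bind a microRNA or an RNA-binding protein in the cytoplasm, and some are hosts, meaning that small nucleolar RNAs (snoRNAs, which guide the modification of ribosomal RNA) or microRNAs are cut out of their introns or exons. For others, the act of transcription next to a protein-coding gene matters more than the RNA, and for most no function is known. In liver, lncRNAs have been studied mainly in hepatocyte identity, lipid metabolism and fibrosis.

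Libraries held 12336665 to 20339665 counts. At those depths a gene at the threshold of 2 CPM has about 25 to 41 counts in a library, and the median member had 52 to 92. The markers of hepatocytes summed to 103413 to 144766 CPM in the formoterol libraries and 87868 to 101976 CPM in the vehicle libraries (6 markers, exact permutation p = 0.0238, two-sided), and none of these markers was at 0 in all libraries. Markers of monocytes and macrophages summed to 14.1 to 40.2 CPM and 32.8 to 61.6 CPM (4 markers, exact permutation p = 0.0476). The summed markers of Kupffer, stellate, endothelial, bile duct, T and NK, B and plasma, and erythroid cells gave exact permutation p from 0.0556 to 0.944, these p-values being unadjusted over the 9 cell types. In bulk tissue, fewer cells of a type and less RNA per cell cannot be told apart, and the part of cell makeup in the lncRNA values below was not tested. Formoterol library M49 had the highest stellate sum of its group at 279 CPM, against 60.6 to 189 in the other 4, and the lowest hepatocyte sum.

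The 280 lncRNAs were a small share of the RNA that was counted. They took 0.339% ± 0.0184 (SD, n = 5) of the counts in the formoterol libraries and 0.345% ± 0.0414 (n = 4) in the vehicle libraries, a difference within the spread between libraries (exact permutation p = 0.746, two-sided; the smallest p that 4 against 5 libraries allow is 0.00794). Within the lncRNA class they held most of the counts, from 78.1% to 82.8% of all lncRNA counts per library. Their abundance was uneven: the most abundant member, Malat1, held 7.93% of the members' counts, the top 3 held 16.9%, the top 8 held 33.7% and the top 12 held 39.6%. Most members lay near the threshold, with 157 at 2 to under 5 CPM, 87 at 5 to under 20 and 36 at 20 CPM or more. Just inside the threshold were Gm15411 at a mean of 2.05 CPM, ENSMUSG00000120390 at 2.01 and ENSMUSG00000120893 at 2.00. Just outside it were ENSMUSG00000117226 at 1.99, ENSMUSG00000120863 at 1.99 and Gm34777 at 1.97.

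The annotation shows how little is known of most of these genes. A placeholder symbol beginning with Gm and a number belonged to 111 members, a symbol ending in Rik (a cDNA clone name) to 78, and only an Ensembl identifier to 44. By the mm39 coordinates in the table, 101 members (36.1%) overlapped a protein-coding gene on the opposite strand, 20 overlapped one on the same strand, and 164 (58.6%) overlapped none. A further feature was shared by 61 members (21.8%): their start lay within 5000 bp of the start of a protein-coding gene on the other strand, both pointing away from each other as from a shared promoter. Since the strand setting of the counting is not given in the sources used here, reads of a member and of a gene it overlaps cannot be told apart. The members were shorter than the protein-coding genes tested, with a median length of 2798 bp against 4493 bp, and ranged from 266 bp to the 93092 bp of Kcnq1ot1.

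The most abundant lncRNA was Malat1 (ENSMUSG00000092341; mm39 chromosome 19, 5845717 to 5852704, minus strand), a nuclear RNA that collects in nuclear speckles, where splicing factors are stored. Scaled with TMM factors, as are all values per library below, it had 403, 216, 140, 156 and 443 CPM in formoterol libraries M46 to M50, and 264, 394, 188 and 301 CPM in vehicle libraries M56, M58, M59 and M60. The formoterol libraries thus held both the highest and the lowest values, and the groups overlapped fully (log2 fold change, formoterol minus vehicle, −0.08, SE 0.36, adjusted p by edgeR = 0.949). Its neighbour Neat1 (chromosome 19, 5874736 to 5895898), the RNA around which paraspeckles form, had 53.9, 92.5, 141, 198 and 230 CPM in the formoterol libraries and 180, 202, 90.4 and 108 CPM in the vehicle libraries. Its lowest and highest libraries, M46 and M50, were both in the formoterol group, and the log2 fold change was −0.02 (SE 0.40, adjusted p by edgeR = 0.988). The sign of both of these near-zero differences turned when some single libraries were left out. Malat1 and Neat1 together made up 0.0389% ± 0.0119 of the counts with formoterol and 0.0457% ± 0.0125 with vehicle (exact permutation p = 0.413).

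**Figure D1:**
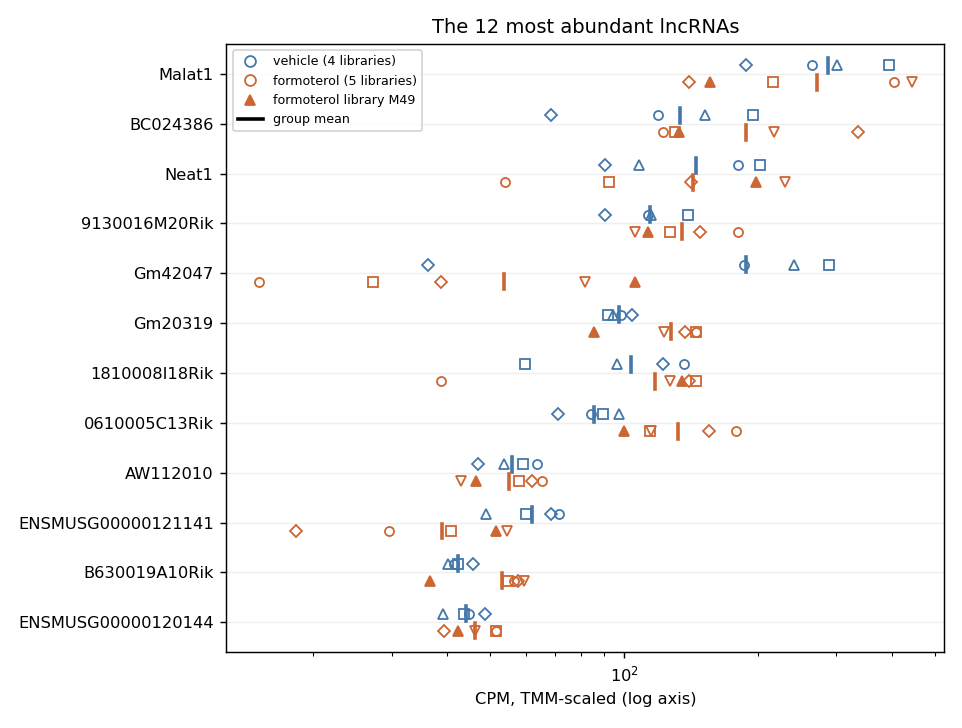
Level of the 12 most abundant lncRNAs in each library, in TMM-scaled CPM on a log axis, with vehicle libraries in blue, formoterol libraries in orange, library M49 filled and group means as bars. 0610005C13Rik is the only one of the 12 whose groups do not overlap, and for Malat1 and Neat1 the formoterol libraries extend beyond the vehicle libraries at both ends.

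Most of the other abundant members are known only by a clone name or identifier, and several sit beside genes with liver functions. BC024386 (chromosome 7, 140485908 to 140487904), which ranked between Malat1 and Neat1 by CPM, had the highest level per length of all members, a mean of 94.1 CPM per kb against 39.3 for Malat1 and 6.82 for Neat1, which is long. It had 122, 130, 336, 133 and 217 CPM with formoterol and 119, 195, 68.3 and 152 CPM with vehicle, so that the groups overlapped (log2 fold change 0.49, SE 0.36). Levels per length next in order were 71.9 CPM per kb for the 266-bp ENSMUSG00000120904, 59.8 for ENSMUSG00000121092, 55.0 for 9130016M20Rik and 43.1 for Gm20319. These levels divide by the annotated gene length, and whether the RNA counted spans that length was not examined. The libraries were made from poly(A) RNA, so forms of an RNA without a poly(A) tail, of Malat1 and Neat1 as of any other, would be undercounted. 9130016M20Rik lies 1089 bp from A1cf, which encodes a cofactor of apolipoprotein B messenger RNA editing, and had 135 ± 29.9 CPM against 114 ± 19.9. A1cf itself was lower at an unadjusted edgeR p of 0.0358 (log2 fold change −0.36, adjusted p = 0.303). 

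Among the 12 most abundant, 0610005C13Rik was the one whose libraries separated by group. This RNA (ENSMUSG00000109644; chromosome 7, 45217213 to 45224751) overlaps Bcat2, a branched-chain aminotransferase gene, on the opposite strand. It had 178, 114, 155, 99.8 and 115 CPM in the formoterol libraries and 84.4, 89.5, 70.8 and 97.1 CPM in the vehicle libraries. Every formoterol value lay above every vehicle value, the nearest pair being M49 and M60 (log2 fold change 0.63, SE 0.18, unadjusted p by edgeR = 0.00372, adjusted p = 0.178). Bcat2 showed a smaller difference, at 18.2 ± 5.10 CPM against 16.7 ± 3.69 (log2 fold change 0.13, SE 0.22).

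Gm42047 (chromosome 8, 122559986 to 122567917) showed the widest spread of the 12. Its values were 15.1, 27.3, 38.8, 106 and 81.7 CPM with formoterol and 186, 288, 36.2 and 241 CPM with vehicle. The vehicle libraries other than M59 exceeded all formoterol libraries, while M59 lay among the low ones (log2 fold change −1.80, SE 0.72, unadjusted p by edgeR = 0.0381, adjusted p = 0.311). Its start lies back to back with that of Klhdc4, which differed little (log2 fold change −0.10). Gm20319, which overlaps Il1rap (the interleukin-1 receptor accessory protein) on the opposite strand, had 145, 145, 137, 85.5 and 123 CPM against 98.3, 92.1, 104 and 94.2 CPM. Only M49 fell below the vehicle libraries (log2 fold change 0.39, SE 0.16, adjusted p = 0.291, and 0.0445 without M49). Il1rap had 269 ± 91.8 CPM against 155 ± 6.79 (log2 fold change 0.79, SE 0.22, unadjusted p by edgeR = 0.00309), and the pair cannot be told apart where reads fall in the overlap.

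For the others of the 12 the groups overlapped as well. 1810008I18Rik had 127 to 145 CPM in 4 formoterol libraries and 38.8 in M46, and AW112010, reported in immune cells, had 55.0 ± 9.81 CPM against 55.9 ± 7.30. ENSMUSG00000121141, 287 bp from Cmip on the same strand, had 29.6, 40.8, 18.3, 51.4 and 54.5 CPM with formoterol and 71.3, 60.3, 68.3 and 48.8 with vehicle (log2 fold change −0.67, SE 0.26, unadjusted p by edgeR = 0.023, adjusted p = 0.261). Cmip had 1.90 ± 1.21 CPM against 4.31 ± 1.79. B630019A10Rik, beside the sialyltransferase gene St6gal1, was at 54.8 to 59.6 CPM in 4 formoterol libraries, above the vehicle libraries at 40.1 to 45.8, but at 36.5 in M49. St6gal1 had lower values, at 10.6 ± 2.65 CPM against 19.8 ± 3.40 (log2 fold change −0.90, SE 0.21, adjusted p by edgeR = 0.159). ENSMUSG00000120144, near Arf6, had 46.2 ± 5.44 CPM against 44.1 ± 3.89.

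Across the members, no lncRNA passed the edgeR test at an adjusted p of 0.05, and neither did any other gene: 0 of 280 members and 0% of the 13042 genes tested were called (smallest adjusted p among members 0.151). At an unadjusted p under 0.05, 51 members (18.2%) were higher in the formoterol livers and 9 (3.21%) were lower. Over all genes tested these shares were 9.03% higher and 5.53% lower, over the protein-coding genes 8.97% and 5.85%, and over the 466 lncRNAs below the threshold that could be tested they were 4.51% and 2.15%. In all, 185 members (66.1%) had a positive log2 fold change, against 48.7% of all genes tested, 47.5% of protein-coding genes and 55.8% of the less abundant lncRNAs. The median log2 fold change was 0.154 for members and −0.0137 for all genes. Members and lists are described by these counts and medians only, with no test of the group as a whole.

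**Figure D2:**
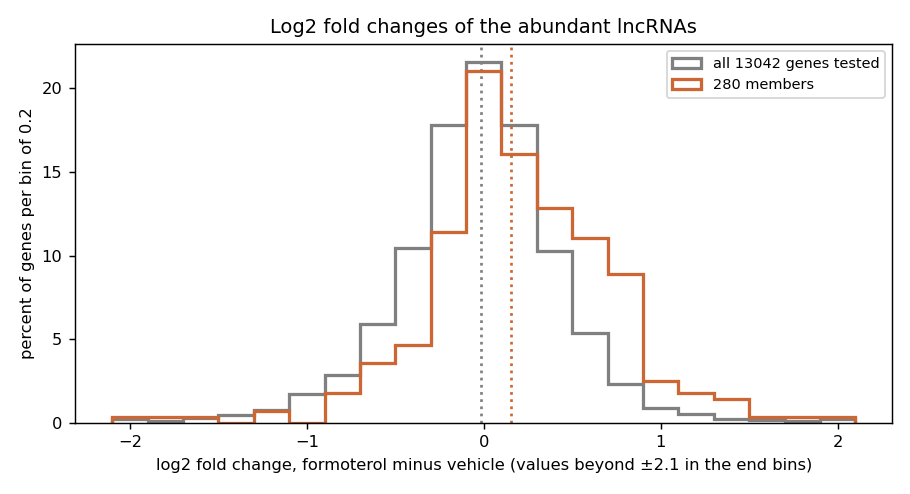
Distribution of log2 fold changes, formoterol minus vehicle, as percent of genes per bin of 0.2, for the 280 members in orange and all 13042 genes tested in grey, with medians dotted. The members' distribution has more weight on the right and a median of 0.154 against −0.0137.

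The excess of higher values differed between bands of level. Of the members at 5 to under 20 CPM, 24 of 87 (27.6%) were higher and 0 lower, while 7.31% of all tested genes of that level were higher and 6.22% lower. At 2 to under 5 CPM the shares were 12.7% and 2.55% for members, and 3.40% and 5.86% for all genes. At 20 CPM or more, members and all genes had like shares of higher values, 19.4% of 36 and 18.9%, and 13.9% of those members were lower, against 4.98%. This band has no upper limit and its levels are not matched, the highest mean being 275 CPM for members and 104398 CPM for all genes. The scaling also set the split. With library totals in place of TMM factors the median of all genes moved to −0.16 and that of the members to −0.00, a distance of 0.16 against 0.17 with TMM factors. Under that scaling 29 members were higher (10.4%, all 29 among the 51) and 13 lower (4.64%), beside 3.58% and 9.91% of all genes. The share of counts taken by mitochondrial genes ranged from 16.4% to 38.6% with formoterol and from 23.4% to 34.0% with vehicle, a difference within the spread (exact permutation p = 0.357).

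A single library had a large hold on these calls. Formoterol library M49 was the lowest of the 5 formoterol libraries for 116 members (41.4%), against 25.9% of all genes tested, whereas M48 was the highest of all 9 libraries for 74 members (26.4%, against 13.4% of all genes). Without M49, edgeR called 32 members at an adjusted p under 0.05, 29 higher (10.4%) and 3 lower (1.07%), where 3.47% and 2.04% of all genes were called. Of those, 27 of the 29 and 2 of the 3 were among the members at unadjusted p under 0.05 with all libraries. Leaving out any other library gave 0. DESeq2 gave an adjusted p to 59 members and called 8 higher and 1 lower (13.6% and 1.69%, beside 4.79% and 1.03% of all genes with one). Limma-voom called 0, and with sample quality weights 36 higher and 8 lower (12.9% and 2.86%, beside 6.20% and 4.62%). Library M49 was left out here as an alternative listed with the other 8 libraries, and earlier results of these data had already shown it apart.

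The groups did not overlap for 13 members, 12 higher and 1 lower with formoterol (4.29% and 0.357%, beside 2.45% and 2.38% of all genes tested, 4.84% in either direction). For protein-coding genes the shares were 2.34% and 2.51%, or 4.85% in either direction. The 12 were 0610005C13Rik, Gm31583, ENSMUSG00000121092, Brip1os, Gm32461, Rab10os, AI463229, Prox1os, 1600020E01Rik, Gm11963, Jpx and Dreh, and the 1 lower was Gm44706. With fewer libraries in a group, groups separate more easily, and the count of higher members was 13 to 40 with any library left out. Without M49 it was 40 higher and 8 lower (14.3% and 2.86%, beside 7.63% and 6.64% of all genes tested), and without vehicle library M60 it was 25 and 7 (8.93% and 2.50%, beside 5.51% and 4.00%). With library totals it was 5 and 2 (1.79% and 0.714%, beside 0.713% and 3.86%). Members of this set outside the naming rule, ENSMUSG00000121092, Brip1os, Rab10os and 1600020E01Rik, were chosen with their values in view.

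**Figure D3:**
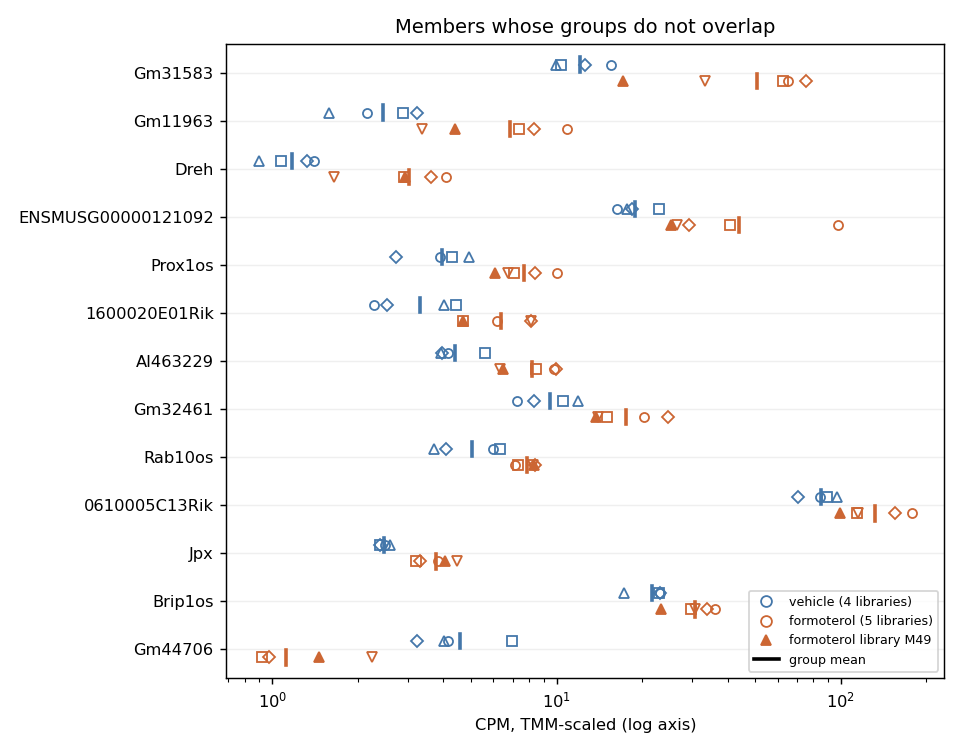
TMM-scaled CPM on a log axis in each library for the 13 members whose groups do not overlap, in order of log2 fold change, with vehicle libraries in blue, formoterol libraries in orange, M49 filled and group means as bars. Library M46 of Gm44706, at 0, is not drawn on the log axis, and M49 is the lowest formoterol library for 6 of the 12 higher members.

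The smallest p among members belonged to Gm31583 (ENSMUSG00000115919; chromosome 16, 23903409 to 23908926, minus strand). It had 65.4, 62.7, 75.5, 17.1 and 33.2 CPM in formoterol libraries M46 to M50 and 15.6, 10.4, 12.6 and 9.93 CPM in the vehicle libraries. The 3 highest values were several times those of any vehicle library, while M49 lay just above M56 (log2 fold change 2.06, SE 0.39, unadjusted p by edgeR = 0.000281, adjusted p = 0.151). The nearest protein-coding gene, 95807 bp away on the same strand, was Bcl6, a transcriptional repressor that is active in male liver. Bcl6 had 20.7 ± 12.8 CPM against 10.2 ± 3.22 (log2 fold change 1.03, SE 0.37, unadjusted p by edgeR = 0.0163).

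Among the others with the smallest p in the higher direction, Gm11963 had 10.9, 7.37, 8.30, 4.39 and 3.35 CPM with formoterol and 2.15, 2.88, 3.22 and 1.58 with vehicle. It lies 13902 bp from Xbp1, a transcription factor of the unfolded protein response, whose log2 fold change was −0.26. Gm53019, opposite to Cmah (a sialic acid hydroxylase gene), had 9.19, 9.85, 9.27, 3.70 and 7.24 CPM against 4.19, 3.54, 3.03 and 1.58, and only M49 fell within the vehicle range. Gm32461, whose nearest protein-coding gene, N6amt1, is 545322 bp away, had 20.3, 15, 24.6, 13.8 and 14 CPM against 7.28, 10.5, 8.35 and 11.9. Their log2 fold changes were 1.47 (SE 0.36), 1.35 (SE 0.33) and 0.89 (SE 0.22), each with an edgeR adjusted p of 0.159.

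Gm30262 (chromosome 10, 111430982 to 111447498) showed the M49 pattern most plainly. It had 33.3, 29.6, 34.9 and 33.8 CPM in the other 4 formoterol libraries, 8.82 in M49, and 11.2, 12.3, 6.25 and 12.3 in the vehicle libraries (log2 fold change 1.42, SE 0.36, adjusted p = 0.172). M49 thus sat within the vehicle range and the other 4 well above it. AI463229 had 9.76, 8.44, 9.92, 6.48 and 6.35 CPM against 4.14, 5.6, 3.95 and 3.91 (log2 fold change 0.90, SE 0.23, adjusted p = 0.159). Dreh, an RNA known from work on hepatitis B virus in liver cells, was low in all libraries, at 4.07, 2.91, 3.63, 2.92 and 1.65 CPM with formoterol and 1.40, 1.07, 1.32 and 0.897 with vehicle (log2 fold change 1.36, SE 0.36, adjusted p = 0.167). The counts behind Dreh were 28 to 60 and 13 to 27 per library.

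ENSMUSG00000121092 is the short RNA (534 bp; chromosome 8, 129231424 to 129231957) that ranked 3 per length. It had 97.6, 40.8, 29.2, 25.3 and 26.5 CPM against 16.3, 23.0, 18.4 and 17.7, with M46 far above the rest (log2 fold change 1.22, SE 0.39, unadjusted p = 0.0108, adjusted p = 0.218). It lies 1580 bp from Nrp1, the neuropilin-1 receptor gene, on the same strand, which had 88.5 ± 35.0 CPM against 48.5 ± 2.67 (log2 fold change 0.87, SE 0.23, unadjusted p by edgeR = 0.00231). Brip1os had 36.1, 29.8, 33.9, 23.3 and 30.6 CPM against 23.2, 23.0, 23.2 and 17.3, a separation by a narrow margin at M49. C4a, a copy of the complement gene C4b that the table labels lncRNA, had 38.6 ± 15.4 CPM against 19.7 ± 2.74, with M49 at 13.8, and is uncertain because its reads can be shared with C4b, which is nearly identical.

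Members whose symbol ends in os or os with a number, for opposite strand, numbered 14. Of these, 10 had a positive log2 fold change (median 0.38), 3 were higher at unadjusted p under 0.05 and 0 lower, beside 48.7%, 9.03% and 5.53% of all genes tested. Prox1os overlaps Prox1, a homeobox factor of liver development, on the opposite strand and had 10, 7.09, 8.37, 6.09 and 6.77 CPM with formoterol and 3.90, 4.28, 2.73 and 4.91 with vehicle. All formoterol libraries exceeded all vehicle libraries (log2 fold change 0.95, SE 0.24, adjusted p by edgeR = 0.159), while Prox1 had 83.0 ± 13.1 CPM against 92.8 ± 13.6 (log2 fold change −0.16, SE 0.16). Hnf4aos, opposite to Hnf4a, a master regulator of hepatocyte genes, had 2.91 ± 0.981 CPM against 1.93 ± 1.37, and Hnf4a had 223 ± 50.7 against 239 ± 27.9. The difference within each pair was not tested.

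The members that were lower were few. ENSMUSG00000121069, near Cyp2d22, had the smallest p among them, with 8.54, 7.58, 11, 24.6 and 20.4 CPM with formoterol and 35.4, 35.2, 34.0 and 24.5 with vehicle. M49 and M60 met at the border of the groups (log2 fold change −1.15, SE 0.32, unadjusted p by edgeR = 0.00347, adjusted p = 0.173). Gm19619 had 2.28, 2.91, 2.33, 5.70 and 2.00 CPM against 6.99, 8.89, 7.08 and 4.28 (log2 fold change −1.14, SE 0.33), again with M49 inside the vehicle range. Gm44706 (chromosome 7, 79390426 to 79391764), opposite to the peroxisome division gene Pex11a, was the only member with all formoterol libraries below all vehicle libraries. It had 0, 0.921, 0.973, 1.46 and 2.24 CPM against 4.14, 6.99, 3.22 and 4.01 (log2 fold change −1.99, SE 0.57, adjusted p = 0.178), where a count of 0 in M46 allows up to 0.244 CPM, counting error only. Pex11a had 106 ± 20.4 CPM against 149 ± 15.9 (log2 fold change −0.48, SE 0.16, unadjusted p = 0.00851), and the pair shares its overlap.

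The other members with the smallest p in the lower direction were spread more widely. ENSMUSG00000120031, 13463 bp from the progestin receptor family gene Paqr9, had 0.0814, 1.91, 2.01, 4.00 and 2.59 CPM against 8.33, 7.90, 5.37 and 3.22, the value of M46 being 1 count (log2 fold change −1.51, SE 0.55, adjusted p = 0.240). 4931408D14Rik, next to the insulin-degrading enzyme gene Ide, had 17 ± 2.90 CPM against 26.5 ± 9.27, with M56 and M59 high and M58 and M60 among the formoterol values. ENSMUSG00000121093 had 22.2 ± 5.68 CPM against 32.0 ± 7.75. Gm16559, opposite to the alcohol dehydrogenase gene Adh1, had 2.43 ± 0.610 CPM against 4.52 ± 2.25, and Adh1 had 1525 ± 180 against 1495 ± 81.8. Their edgeR adjusted p ranged from 0.213 for 4931408D14Rik to 0.280 for Gm16559.

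**Figure D4:**
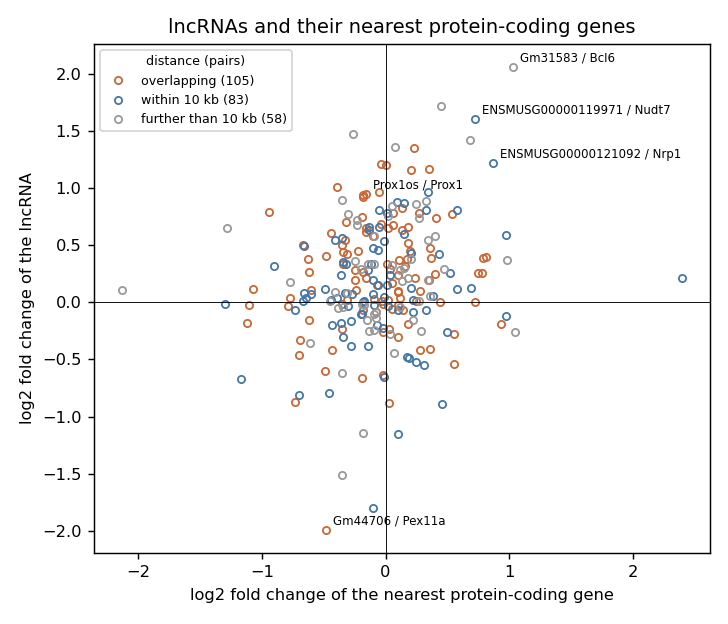
Log2 fold change of each member (vertical axis) against that of its nearest protein-coding gene (horizontal axis) for the 246 members whose neighbour was tested, coloured by distance. The points form a broad cloud with Pearson r of 0.20, in which Gm31583 with Bcl6 and ENSMUSG00000121092 with Nrp1 lie together at the upper right.

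Over all 246 members with a tested neighbour, the log2 fold changes of lncRNA and nearest protein-coding gene were weakly related (Pearson r = 0.20, Spearman rho = 0.17, across genes that share the 9 libraries and are not independent replicates). The value was 0.13 for 105 overlapping pairs, 0.22 for 83 pairs within 10 kb and 0.26 for 58 pairs farther apart. It was thus no greater where the genes overlap or lie close together than where they do not, a description without a test. The sign was shared by 132 of the 246 pairs. Members that overlap a protein-coding gene had a median log2 fold change of 0.24 (26 of 116 higher and 2 lower at unadjusted p under 0.05), and those that overlap none had 0.12 (25 and 7 of 164). Of all genes tested 9.03% were higher and 5.53% lower, and the difference between these classes of members was not tested. Across members the log2 fold change was hardly related to gene length (Pearson r = −0.12), less than across protein-coding genes (r = −0.24).

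Hosts of snoRNAs formed a recognisable class among the members, and 13 of the 280 hold at least 1 snoRNA gene on their own strand in the table. The host RNA left after splicing is often degraded on ribosomes by nonsense-mediated decay. Of the 13, 9 had a positive log2 fold change (median 0.26), 2 were higher at unadjusted p under 0.05 and 0 lower. Among all genes tested 48.7% were positive, 9.03% higher and 5.53% lower. At 2 to under 5 CPM, the level of both higher hosts, 3.40% of all genes tested were higher and 5.86% lower. The count of 2 of 13 was not tested against either share. Snhg6 had 3.34, 2.48, 3.89, 2.1 and 3.00 CPM against 1.22, 2.63, 1.46 and 1.74 (log2 fold change 0.75, SE 0.34, adjusted p by edgeR = 0.327). Snhg20 had 3.17, 2.84, 5.64, 2.49 and 4.29 CPM against 1.81, 2.88, 1.90 and 2.38 (log2 fold change 0.72, SE 0.32, adjusted p = 0.319). In both, vehicle library M58 reached into the formoterol range.

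The best known host, Gas5, which holds 10 snoRNA genes, had 25.4 ± 3.01 CPM against 23.6 ± 5.74 (log2 fold change 0.10, SE 0.17, and −0.05 with library totals). Zfas1, the host of 3, had 3.60 ± 0.815 CPM against 2.34 ± 0.763 (log2 fold change 0.61, SE 0.31, adjusted p = 0.391), and Snhg8 had 7.33 ± 2.79 against 5.13 ± 2.07. Snhg12 had 3.59 ± 1.44 CPM against 3.01 ± 1.51 and Snhg17 5.38 ± 0.365 against 6.44 ± 1.68. Snhg1 and Snhg5 had log2 fold changes of −0.03 and −0.15, near 0 beside their SE of 0.31 and 0.42. Dancr, a host in the fixed list that lies under the threshold at a mean of 1.59 CPM, had 2.21 ± 0.948 CPM against 0.931 ± 0.444 (unadjusted p = 0.0176). Of the 21 genes of that list 17 were tested, with 3 higher and 0 lower at unadjusted p under 0.05 and a median log2 fold change of 0.18, beside 9.03% higher and 5.53% lower of all genes tested.

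**Figure D5:**
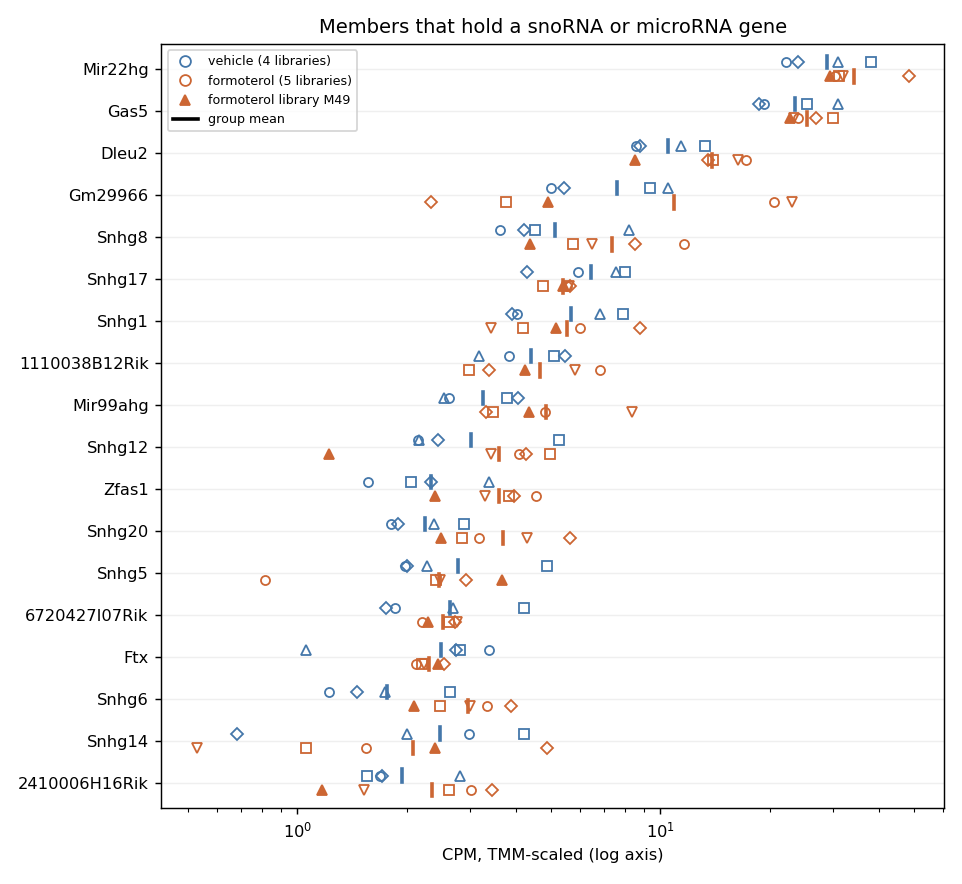
TMM-scaled CPM on a log axis in each library for the members with a symbol that hold a snoRNA or microRNA gene, in order of mean level, with vehicle libraries in blue, formoterol libraries in orange, M49 filled and group means as bars. The groups overlap for every host drawn, including Snhg6 and Snhg20.

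Host RNAs of microRNAs were 7 of the members: Mir22hg, Dleu2, Gm29966, Mir99ahg, Snhg20, 6720427I07Rik and Ftx. The libraries were made from poly(A) RNA, so they count the host transcript and not the mature microRNA. The mature sequences below (RefSeq, GRCm38.p6, 5′ to 3′, with the seed, bases 2 to 8, in capitals) show which hosts carry microRNAs of the same seed, since the seed largely sets which messenger RNAs a microRNA pairs with. Mir99ahg and 6720427I07Rik, on different chromosomes, carry 4 let-7 RNAs that share the seed GAGGUAG.
mmu-let-7c-5p (Mir99ahg): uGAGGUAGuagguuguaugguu
mmu-let-7a-5p (6720427I07Rik): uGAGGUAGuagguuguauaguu
mmu-let-7f-5p (6720427I07Rik): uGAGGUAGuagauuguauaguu
mmu-let-7d-5p (6720427I07Rik): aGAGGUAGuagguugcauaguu
Dleu2 carries a pair that share the seed AGCAGCA, and Mir22hg carries miR-22 alone.
mmu-miR-15a-5p (Dleu2): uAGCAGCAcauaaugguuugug
mmu-miR-16-5p (Dleu2): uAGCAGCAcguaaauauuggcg
mmu-miR-22-3p (Mir22hg): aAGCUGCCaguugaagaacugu

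The 2 hosts of let-7 did not show the same values. Mir99ahg had 4.8, 3.47, 3.31, 4.34 and 8.35 CPM with formoterol and 2.62, 3.79, 4.05 and 2.53 with vehicle, M50 standing out (log2 fold change 0.58, SE 0.32, adjusted p by edgeR = 0.417). 6720427I07Rik had 2.52 ± 0.259 CPM against 2.63 ± 1.13 (log2 fold change −0.05, SE 0.33), and the difference between the hosts was not tested. Dleu2, the host of the miR-15a and miR-16 pair, had 17.2, 14, 13.5, 8.53 and 16.4 CPM against 8.56, 13.3, 8.79 and 11.4. All formoterol libraries but M49 lay above the vehicle libraries, and M49 lay below them (log2 fold change 0.41, SE 0.22, adjusted p = 0.417). Mir22hg had 34.2 ± 8.00 CPM against 28.8 ± 7.26 (log2 fold change 0.25, SE 0.20). Gm29966 ranged from 2.33 to 23.1 CPM within the formoterol group alone. In the fixed list of microRNA hosts, 5 of 12 genes were tested and 0 were past unadjusted p of 0.05.

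The factors that cut and load microRNAs gave 0 higher and 2 lower of 10 at unadjusted p under 0.05 (median log2 fold change −0.12). Ago2, the slicing Argonaute, had 4.53 ± 2.29 CPM against 9.18 ± 2.80 (log2 fold change −1.01, SE 0.35, adjusted p by edgeR = 0.221). Dgcr8, the RNA-binding partner of Drosha, had 1.99 ± 0.658 CPM against 3.44 ± 0.492, and its groups did not overlap. Drosha itself had 6.15 ± 2.21 CPM against 8.09 ± 1.81. The count of 2 of 10 lower stands beside 5.53% of all genes tested.

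Oip5os1 (chromosome 2, 119424757 to 119437983), also called Cyrano, is known for a conserved site that pairs with miR-7 far beyond its seed and leads to decay of that microRNA. In its transcript of 8300 bases (GENCODE M21) the letters complementary to the miR-7 seed, GTCTTCC, occurred 2 times, and at bases 2934 to 2959 they were followed on the microRNA's 3′ side by a run of 13 further complementary bases. The site and the microRNA are shown with the seed match and the seed in capitals.
Oip5os1 site: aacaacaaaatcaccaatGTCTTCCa
mmu-miR-7a-5p: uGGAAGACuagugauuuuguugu
The RNA that carries this site varied little, its highest library being 1.42 times its lowest. It had 30.1, 26.8, 32.8, 36.7 and 37.4 CPM with formoterol and 35.2, 37.5, 38.1 and 30.9 CPM with vehicle, and the groups overlapped (log2 fold change −0.11, SE 0.14, adjusted p by edgeR = 0.763).

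Norad (chromosome 2, 156229980 to 156234921) is a cytoplasmic RNA that binds Pumilio proteins through repeated copies of their recognition motif. In its transcript of 4915 bases the motif TGTANATA, searched on the transcript strand, occurred 11 times, of which 6 were TGTATATA and 2 TGTAAATA. Copies from 3 places in the transcript, with the motif in capitals, show how the repeats sit in different surroundings.
Norad, motif at base 651: tagaagtcctgTGTATATAatatgaaaaag
Norad, motif at base 1147: agtaaacatgcTGTAAATAcctttttgtta
Norad, motif at base 2754: cagtactactaTGTATATAggggacaaatt
Norad had 25.5, 31.7, 17.6, 36.4 and 29.9 CPM with formoterol and 33.0, 28.9, 36.9 and 38.5 with vehicle. M47, M49 and M50 lay within the vehicle range, M46 and M48 below it (log2 fold change −0.28, SE 0.19, adjusted p by edgeR = 0.517).

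Imprinted lncRNAs and lncRNAs of the X-inactivation centre were among the less abundant members by count. Kcnq1ot1, the long antisense RNA that silences its imprinted neighbours, had 1.22, 0.780, 0.778, 1.66 and 4.94 CPM against 3.09, 1.89, 2.44 and 3.54. Only M50 exceeded the vehicle libraries and the other 4 lay below them (log2 fold change −0.54, SE 0.51, adjusted p by edgeR = 0.664). Peg13 had 2.55 ± 2.30 CPM against 2.93 ± 1.25, with M49 at 6.48, and lies inside Trappc9, which had 2.03 ± 0.766 against 4.43 ± 0.897 (unadjusted p = 0.00291). Snhg14, the long host of snoRNAs of the Prader-Willi region, had 2.08 ± 1.70 against 2.46 ± 1.49. Of the imprinted list 6 of 9 genes were tested, 0 had a positive log2 fold change and 1, H19, which is under the threshold, was lower at unadjusted p under 0.05, beside 48.7% positive and 5.53% lower of all genes tested.

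Jpx, an activator of Xist in female cells, was the only 1 of the 5 members on chromosome X whose groups did not overlap. It had 3.82, 3.19, 3.31, 4.05 and 4.47 CPM with formoterol and 2.50, 2.39, 2.39 and 2.59 with vehicle, from 29 to 83 counts per library. The SD of the vehicle values was 0.0963 CPM, and all formoterol values lay above them (log2 fold change 0.61, SE 0.26, unadjusted p by edgeR = 0.0322, adjusted p = 0.293). Ftx, which overlaps it on the opposite strand so that reads there cannot be told apart, had 2.30 ± 0.173 CPM against 2.49 ± 1.00, and Firre, which organises contacts between chromosomes in the nucleus, ranged widely in both groups, at 26.6 ± 11.8 against 25.4 ± 9.05.

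The promoters of 155 members were found in RefSeq (GRCm38.p6; 250 bases before to 50 after the start). Because cyclic AMP acts on transcription through factors that bind TGACGTCA, this full element, its part TGACG (which the full element contains, and which reads CGTCA on the other strand) and, for comparison, CCAAT (which reads ATTGG on the other strand) were searched on both strands. The full element was in 3.87% of member genes and 2.03% of all 27025 genes of the table, the part in 31.0% and 23.0%, and CCAAT in 44.5% and 41.1%. Among 32 of the higher members with a promoter these shares were 3.12%, 28.1% and 40.6%. Counted over promoter windows, of which a gene can have several, the part was in 19.1% of 47 windows of higher members, 33.0% of 221 windows of members and 20.8% of all 32851 windows. The gap between the higher members and all members was thus wider over windows than over genes, and was not tested. The promoters of 3 members whose groups did not overlap are shown, Rab10os and Jpx because they hold the part and Gm31583 because it had the smallest p and holds none. Of the 8 such members whose first window was read, only Rab10os and Jpx hold the part, beside 20.8% of all windows. The windows of 1600020E01Rik, 0610005C13Rik, Gm11963, Gm32461 and Dreh, not shown, hold none either. Capitals mark these parts and CCAAT.
Rab10os, chr12:3235541-3235840, plus strand: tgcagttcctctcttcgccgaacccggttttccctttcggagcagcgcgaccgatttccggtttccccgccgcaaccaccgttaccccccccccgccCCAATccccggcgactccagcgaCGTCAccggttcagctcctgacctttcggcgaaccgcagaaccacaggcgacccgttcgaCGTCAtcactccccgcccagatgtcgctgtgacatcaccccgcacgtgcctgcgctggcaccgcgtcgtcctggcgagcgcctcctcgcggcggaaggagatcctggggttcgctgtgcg
Jpx, chrX:103493308-103493607, plus strand: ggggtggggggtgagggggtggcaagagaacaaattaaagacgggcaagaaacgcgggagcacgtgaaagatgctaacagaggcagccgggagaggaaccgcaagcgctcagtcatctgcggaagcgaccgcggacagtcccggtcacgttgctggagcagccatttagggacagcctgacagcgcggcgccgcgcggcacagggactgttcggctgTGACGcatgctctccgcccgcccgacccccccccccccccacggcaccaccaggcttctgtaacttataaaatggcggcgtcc
Gm31583, chr16:24090016-24090315, minus strand: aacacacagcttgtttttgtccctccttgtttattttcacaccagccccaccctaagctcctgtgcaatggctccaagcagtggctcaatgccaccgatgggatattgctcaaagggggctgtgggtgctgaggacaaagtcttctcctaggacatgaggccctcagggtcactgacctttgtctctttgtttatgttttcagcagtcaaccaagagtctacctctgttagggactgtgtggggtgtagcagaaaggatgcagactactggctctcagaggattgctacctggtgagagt

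The promoters of Rab10os and Jpx are rich in G and C (67.3% and 64.7%) and that of Gm31583 is less so (50.7%). In Rab10os the part begins 130 and 70 bases before the start, and in Jpx 33 bases before it. Rab10os, which lies opposite to the Rab10 gene of a small GTPase of membrane traffic, had 7.16, 7.30, 8.37, 8.33 and 8.24 CPM with formoterol and 6.00, 6.34, 4.10 and 3.70 with vehicle (log2 fold change 0.65, SE 0.22, adjusted p by edgeR = 0.213). Here M49 stood with the other formoterol libraries, and Rab10 had a log2 fold change of −0.16. 1600020E01Rik, opposite to the RNA-binding protein gene Pcbp1, had 6.35 ± 1.72 CPM against 3.32 ± 1.07 (log2 fold change 0.94, SE 0.29, adjusted p = 0.191), while Pcbp1 had 74.9 ± 12.5 against 84.7 ± 4.87.

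Proteins that work with lncRNAs were read from lists of protein-coding genes. None of 15 paraspeckle proteins, which assemble on Neat1, was past an unadjusted p of 0.05 (median log2 fold change −0.02); the smallest p belonged to Tardbp, at 69.3 ± 13.5 CPM against 55.0 ± 3.81 (unadjusted p = 0.0533). Of 15 proteins of nuclear speckles and splicing, 0 were higher and 2 lower (median −0.01): the scaffold Srrm2 had 32.5 ± 17.4 CPM against 62.3 ± 16.1, and the splicing factor Srsf2 had 44.4 ± 7.15 against 58.7 ± 10.7. Of 14 snoRNP proteins 2 were higher and 0 lower (median 0.07), namely Nhp2 at 31.0 ± 8.39 CPM against 20.7 ± 6.65 and Nop56 at 28.8 ± 3.22 against 23.1 ± 2.43. Of 26 factors of nonsense-mediated and nuclear RNA decay 4 were higher and 0 lower (median 0.00), among them the exosome subunits Exosc8, at 12.6 ± 2.52 CPM against 8.92 ± 1.11, and Exosc4, at 21.2 ± 3.87 against 14.8 ± 4.40, and Smg5, at 25.7 ± 3.46 against 20.0 ± 2.34. None of these passed the edgeR adjusted threshold, and their counts stand beside 9.03% higher and 5.53% lower of all genes tested.

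Replicates of the members varied more than those of protein-coding genes in the same band of level. At 5 to under 20 CPM the median coefficient of variation was 23.8% in vehicle and 29.9% in formoterol libraries for 87 members, and 16.4% and 23.2% for 4219 protein-coding genes. At 20 CPM or more it was 16.8% and 26.8% for 36 members, and 12.6% and 18.3% for protein-coding genes. That band has no upper limit, and protein-coding genes reach far higher levels in it, so levels are not matched there. At 2 to under 5 CPM the median was 28.8% and 39.3% for 157 members, and 24.4% and 36.4% for 1912 protein-coding genes. In each band and for both kinds of gene the formoterol group had the wider spread, which limits the precision of each fold change given here.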

How the data were processed

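Poly(A) RNA of 9 liver samples was sequenced, and the authors deposited raw read counts per gene, per the labels and the table itself. HISAT2 2.0.5, DESeq2 and the mm39 build are named in the submitters' processing notes. Which counter, strand setting and gene annotation were used was not given in the sources used here. The columns could be matched to groups, not to numbered replicates.

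Formoterol and vehicle were compared over all genes with edgeR 4.0.16 in R 4.3.3 (TMM factors, filterByExpr at a count of at least 10 and a total of at least 15, robust quasi-likelihood test, Benjamini-Hochberg adjustment). DESeq2 1.42.0, limma 3.58.1, other scalings, no filter, and each library left out in turn were alternatives. An adjusted p that DESeq2 left out stayed out. The edgeR procedure was tested on simulated counts. The study design names 4 vehicle and 5 formoterol mice, the same numbers as the libraries, so each library was read as a separate mouse. The labels themselves do not link a sample to an animal. Sequences came from RefSeq (GRCm38.p6) and GENCODE M21, of another build than the counts, and were matched by symbol.

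Members named are the 12 most abundant, up to 8 higher and 8 lower with the smallest p, and those in lists of studied lncRNAs; protein-coding lists give up to 3 genes each, and neighbours are those of the smallest-p members. ENSMUSG00000120904, C4a, Gm29966, 6720427I07Rik, Dancr and the neighbours of other members were named outside this rule, after their values were known. A member in those lists is not reported here. The members and lists were chosen with earlier results of these data known.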

Additional observations from a re-analysis of the deposited data

Results flagged for a closer look

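Of 98 groups of named members examined, 13 had 1 library far from the others by Dixon's criterion, which chance gives in about 1 of 20 groups. Of the 13, 4 were in M49: B630019A10Rik at 36.5 CPM (others 54.8 to 59.6) and Gm30262 at 8.82 (29.6 to 34.9) were low, and Gm19619 at 5.70 (2.00 to 2.91) and Peg13 at 6.48 (0.895 to 2.48) were high. In the other formoterol libraries, 1810008I18Rik was low in M46 at 38.8 CPM (127 to 145) and Snhg17 in M47 at 4.75 (5.41 to 5.64), while Mir22hg was high in M48 at 48.4 (29.3 to 31.8) and Kcnq1ot1 in M50 at 4.94 (0.778 to 1.66). Among vehicle libraries, M58 was high for AI463229 at 5.6 CPM (3.91 to 4.14), Snhg5 at 4.86 (1.98 to 2.27) and Snhg12 at 5.27 (2.15 to 2.44). ENSMUSG00000121069 was low in M60 at 24.5 CPM (34.0 to 35.4), and ENSMUSG00000121093 was high in M56 at 43.4 (26.8 to 29.6).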

How the results depend on the processing

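No paired analysis was possible because the columns of the count table carry no replicate number and the labels name no pairs of mice. With each library read as a separate mouse, the groups were compared as unpaired. Members with an adjusted p under 0.05 numbered 0 with edgeR, 10 without a filter, 9 with DESeq2, 44 with voom quality weights and 0 to 32 with a library left out (32 without M49), beside 0, 263, 316, 1410 and 0 to 702 of all genes (4 without M60). The counts at unadjusted p under 0.05 were, with library totals, 29 members higher and 13 lower, and 467 genes higher and 1292 lower, with medians of −0.00 and −0.16. With quality weights they were 70 members higher (25%) and 21 lower (7.5%), beside 1851 genes higher and 1848 lower (14.2% each). Without a filter they were 53 members higher (18.9%) and 11 lower (3.93%), beside 1494 genes higher (6.21%) and 1630 lower (6.78%). With a library left out they were 37 to 68 members higher and 4 to 15 lower, beside 766 to 1606 genes higher (766 without M56) and 437 to 1375 lower. The median of all genes was −0.06 with upper-quartile factors, −0.07 without a filter, −0.06 with DESeq2, −0.04 with voom and −0.03 to 0.00 with a library left out. A threshold of 1 CPM gave 487 members with 14 lower. The number higher at 1 CPM is not given here, so the 14 alone do not show the balance of directions there. A threshold of 5 CPM gave 123 members with 31 higher and 5 lower. Over all genes tested 9.03% were higher and 5.53% lower, shares that differ by level as given above. The 164 members that overlap no protein-coding gene gave 25 higher and 7 lower. Members whose groups do not overlap numbered 5 higher and 2 lower with library totals (1.79% and 0.714%, beside 0.713% and 3.86% of all genes tested). The number lower was 2 with upper-quartile factors and 2 with TMM on totals without mitochondrial genes, where the share of all genes was not counted. With a library left out they numbered 13 to 40 higher (4.64% to 14.3%) and 1 to 8 lower (0.357% to 2.86%). Over all genes tested those shares were 2.79% to 7.63% higher and 2.88% to 6.64% lower. With library totals the list medians were −0.17 for paraspeckle, −0.08 for snoRNP and −0.14 for decay proteins, the last being −0.03 to 0.11 with a library left out. Quality weights called 1 of 15 speckle, 1 of 14 snoRNP, 1 of 26 decay and 2 of 10 microprocessor genes. Of all genes tested they called 6.2% higher and 4.62% lower. Signs of small differences turned, the cause not tested: with a library left out, Malat1 ranged from −0.33 to 0.12, Neat1 −0.27 to 0.18, 1810008I18Rik −0.01 to 0.39, AW112010 −0.11 to 0.05, Snhg1 −0.27 to 0.17, Snhg5 −0.34 to 0.25, Snhg14 −0.82 to 0.15, Peg13 −0.90 to 0.02, Ftx −0.36 to 0.08 and Firre −0.16 to 0.31. With library totals ENSMUSG00000120144 was −0.09, Gas5 −0.05 and Firre −0.09, with quality weights AW112010 was 0.04 and Firre −0.04, and with voom Ftx was 0.05. The other settings of the named members kept their sign. At the threshold a member has 25 to 41 counts per library, which limits its precision.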
